A study of Homo sapiens with 9 samples.

Results

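The human Rab GTPases and the genes that attach their lipid anchor were described here in A375 melanoma cells with and without SPANX knockdown. Members were the genes whose symbol is RAB followed by a number and at most a letter and a further digit, together with CHM, CHML, RABGGTA and RABGGTB, provided that they were above 0 in at least 1 group. Of 68 matching symbols, 13 were listed at 0 in all 9 libraries (RAB19, RAB1C, RAB25, RAB33A, RAB37, RAB3C, RAB40A, RAB41, RAB42, RAB42P1, RAB43P1, RAB44 and RAB6C). The other 55, 51 Rab genes and 4 prenylation genes, were members, out of 14678 gene IDs above 0 anywhere and 60420 listed. All 55 were among the 13825 genes tested.

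SPANX genes are X-linked cancer/testis genes, read in the male germ line and in some tumours. The study took total RNA 7 days after knockdown and sequenced 3′ ends (QuantSeq, 75-base single reads) in 3 groups of 3 libraries. The groups are the EV control, SPANX KD 86 and SPANX KD 87, below EV, KD 86 and KD 87. All came from A375, an established human melanoma line, so each group is a model of 1 line, and the labels do not say what the numbers 86 and 87 stand for, what EV abbreviates or whether the replicates were separate cultures. The spread that each p-value is judged by is therefore that of the libraries and may be technical.

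Rab proteins are small GTPases that switch between a GTP-bound form on a membrane and a GDP-bound form, and each marks particular compartments of the secretory and endocytic pathways. A newly made Rab is bound by a Rab escort protein (CHM encodes REP-1 and CHML REP-2), which presents it to Rab geranylgeranyl transferase, an enzyme of an alpha subunit (RABGGTA) and a beta subunit (RABGGTB). The enzyme joins geranylgeranyl groups to cysteines at the end of the Rab. Guanine nucleotide dissociation inhibitors (GDIs) recycle the prenylated protein, exchange factors (GEFs) load GTP and activating proteins (GAPs) end the GTP-bound state. In pigment cells RAB27A tethers melanosomes to actin motors, and RAB32 and RAB38 bring pigment enzymes to them.

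The cysteines that receive the lipid stand in the last codons of each Rab. The last 30 coding bases are shown for some of the Rabs described below, 1 block for each arrangement but that of RAB20 and RAB34. They are from GENCODE v29 transcripts (GRCh38) and run 5′ to 3′ with the stop codon last. Cysteine codons among the last 5 codons are in capitals. Of the 51 Rab genes, 42 had 2 cysteine codons there and 9 had 1. The commonest arrangement, in 16 genes, had cysteine codons the last and the third from last.
RAB15: gcgaactcttcgaaaaccTGCtggTGCtga
RAB6B: ccggccagcgagggcggcTGCtccTGCtaa
RAB27B: aagccaccagagaagaaaTGTatcTGCtag
RAB39A: gtaaagcccaggaaagaaTGCttcTGCtga
RAB39B: gtcaaatcagagaggagaTGTttgTGCtag
RAB3D: gccccccagcccagcagcTGCagcTGCtag
In 14 genes the last 2 codons were both for cysteine.
RAB2B: gacatagggtccaactctggcTGCTGCtga
RAB22A: ccttcagagccaaagcggagcTGCTGCtga
RAB31: accatgcaagccagccgccggTGCTGTtga
In 2 genes, RAB20 and RAB34, whose ends are not shown, the cysteine codons were the second and the third from last. In 6 genes they were the third and the fourth from last.
RAB5A: ccaaccaggaatcagTGTTGTagtaactaa
RAB5B: cagaacaagagccagTGTTGTagcaactga
In 4 genes (RAB11A, RAB11B, RAB21 and RAB30) they were the fourth and the fifth from last.
RAB11A: ccaaaggtgcagTGCTGTcagaacatctaa
RAB21: agtggtggagggTGCTGTtcttctggataa
The 9 genes with 1 cysteine codon among these 5 had it as the fourth from last, the place of the cysteine in a CAAX box.
RAB8B: accagtttctttcgtTGCtcgctactttga
RAB13: aagaacaccaacaagTGCtccctgggctga
RAB28: actcagagtagaatcTGTtcagtacagtag
RAB38: gccagctgctctggcTGTgccaaatcctag

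Levels are given as normalised reads, the deposited values turned back to reads and put on a scale common to the 9 libraries. They are listed in the order of replicates 1, 2 and 3 and are not comparable between genes. Depth ran from 11310750 to 15564227 recovered reads a library. The SPANX level was summed over only the 2 genes, of 10 listed, that passed the filter for testing. It was 178 to 611 in EV, 36.2 to 103 with KD 86 (7.12-fold lower) and 24.1 to 40.9 with KD 87 (13.5-fold lower), with no overlap in either case. The exact two-sided permutation p was 0.1 for each, the smallest that 3 against 3 libraries can give. Of 10 melanocyte markers 6 were above 0, and MLANA, TYR, TYRP1 and DCT were listed at 0. The summed melanocyte level was 3437 to 6916 in EV, 15820 to 22070 with KD 86 and 8927 to 13100 with KD 87. SOX10 made up most of it (2278 to 5921, 12820 to 19750 and 7133 to 11410). PAX3 was lower than EV with KD 87 (54.9 to 67.1 beside 132 to 165) and higher with KD 86 (171 to 190). S100A1 lay above EV with both knockdowns (117 to 245 in EV, 1458 to 1595 with KD 86 and 582 to 863 with KD 87). MITF and PMEL overlapped EV with KD 86. With KD 87 they lay above it (MITF 699 to 769 beside 473.5 to 678, PMEL 19.8 to 32.8 beside 8.67 to 19.3). S100B overlapped EV with both knockdowns. The 5 fibroblast markers, each above 0 in at least 1 library, summed to 168 to 295 in EV, 705 to 837 with KD 86 and 665 to 983 with KD 87. COL3A1 was listed at 0 in EV and with KD 86 and stood at 11.6 to 46.5 with KD 87. For the keratinocyte list, 2 of 4 above 0, the sums were 1038 to 2202, 697 to 1177 and 1356 to 1809. Of the other markers with a row, PTPRC, CD3E and CD14 of leukocytes and CDH5 of endothelium were at 0. The part of these shifts in the results was not tested, and in such bulk RNA fewer cells of a kind and less RNA per cell cannot be told apart.

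The first question was which of these transcripts differed from EV with each knockdown. With KD 86, 12 of the 55 members rose and 7 fell. Over all 13825 genes 18.0% rose and 17.6% fell, 35.6% in all. The members' share of 34.5% is near that background and is not a result about Rab genes as a class. With KD 87, 7 members rose and 2 fell, against 5.92% and 4.43% of all genes (16.4% of members against 10.4%). The members' median log2 fold change was 0.28 with KD 86 and 0.09 with KD 87, beside -0.04 and 0.00 for all genes. Adjusted p-values below come from limma's two-sided test, with the Benjamini-Hochberg correction for every gene in the fit and a threshold of 0.05. Errors of fold changes are standard errors.

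The KD 87 count rested on few libraries, with 3 members called without KD 87 replicate 1, 5 without EV replicate 1 and 5 without KD 87 replicate 2. With replicate number as a block it was 20, beside 31.0% of all genes, and with KD 86 the block gave 28, beside 55.3%. With the trend by transcript length removed the KD 87 count was 14, beside 15.5% of all genes. With both the length trend removed and the block, 32 members passed with KD 86 (beside 55.3%), 23 with KD 87 (34.6%) and 30 between the knockdowns (47.9%). Both knockdowns were set against the same EV libraries, so their values are given side by side and not as independent evidence. In the fit without a block, RAB15, RAB2B, RAB5A, RAB6B and RAB8B rose in both. In that fit 0 members fell in both (1, RAB17, at an unadjusted p under 0.05 in each, and 0 by voom). Of all genes 4.07% rose in both and 1.79% fell in both in that fit. With the block RAB5B, RAB12, RAB18 and RAB30 also rose in both, and RAB17 fell in both (adjusted p = 0.00129 and 0.0266). With the length trend removed RAB12 and RAB30 also rose in both.

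**Figure D1:**
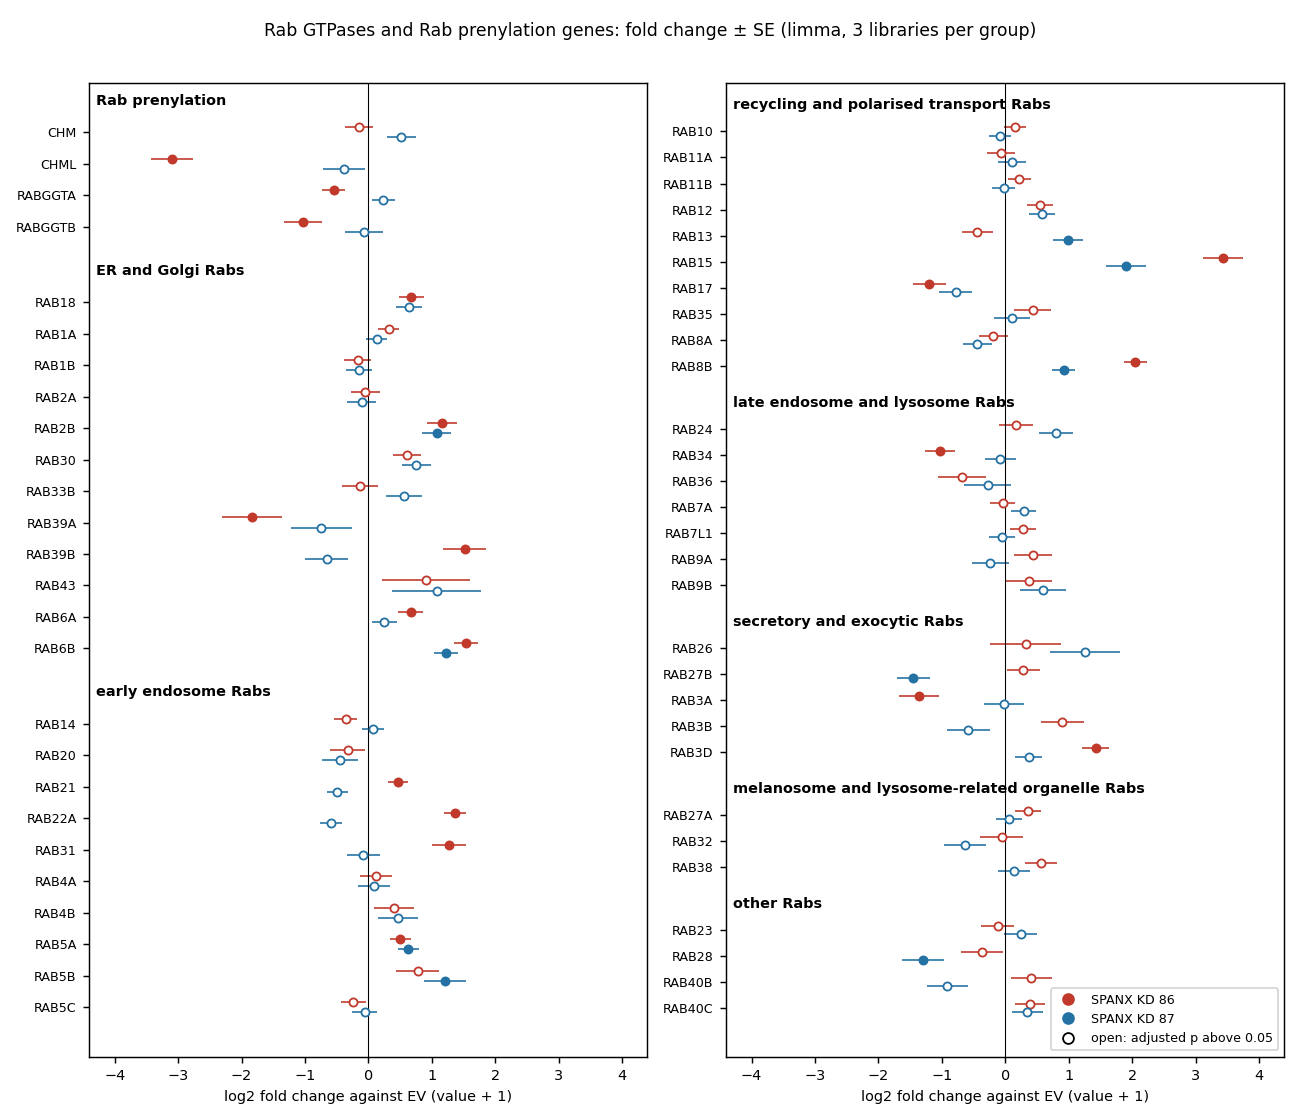
Log2 fold change against EV (horizontal axis, with bars of 1 standard error, 3 libraries a group) of each of the 55 members, grouped by role on the vertical axis, in red for KD 86 and in blue for KD 87, filled where the adjusted p was at most 0.05. RAB15 lies farthest right for both knockdowns, at 3.43 and 1.90, and the KD 86 value of CHML lies farthest left, at -3.10.

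With KD 86, 3 of the 4 prenylation genes, CHML, RABGGTA and RABGGTB, fell and CHM did not pass, while 17.6% of all genes fell. With the length trend removed 2 of the 4 fell. With KD 87 0 of the 4 passed (1 at an unadjusted p under 0.05, and 0 by voom on the recovered reads). Among all genes 10.4% passed with KD 87. Between the knockdowns the same 3 genes were higher with KD 87, beside 12.7% of all genes. CHM was also called higher there with the replicate block (adjusted p = 0.00837) and with the length trend removed (0.00975). With the block 44.1% of all genes passed in that comparison. The median log2 fold change of the 4 was -0.79 with KD 86 and 0.08 with KD 87.

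CHML, the escort protein REP-2, stood at 1371, 2242 and 1560 normalised reads in EV, 123, 196 and 315 with KD 86 and 978, 1504 and 1474 with KD 87. It fell by 3.10 ± 0.34 (log2) with KD 86, 8.55-fold (adjusted p = 0.000169), and its value with KD 87 was -0.38 ± 0.34 (adjusted p = 0.492). All 3 KD 86 libraries lay below every other library, and EV and KD 87 overlapped. The difference between the knockdowns was 2.71 ± 0.34 (adjusted p = 0.00046). CHML lies within OPN3 on the same strand, and OPN3, which encodes a light-sensing receptor, extends over its 3′ end. OPN3 itself did not pass against EV (log2 0.37 with KD 86, adjusted p = 0.358, and -0.92 with KD 87, adjusted p = 0.0789). It was lower with KD 87 than with KD 86 (-1.29, adjusted p = 0.0107), and its part in the counts of CHML was not tested.

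CHM, the escort protein REP-1 whose loss causes the retinal disease choroideremia, stood at 429, 698 and 625 normalised reads in EV, 417, 558 and 596 with KD 86 and 843, 808 and 814 with KD 87. The values against EV were -0.14 ± 0.22 with KD 86 (adjusted p = 0.64) and 0.52 ± 0.22 with KD 87 (adjusted p = 0.159, 0.0377 with the replicate block). All KD 87 libraries lay above the EV libraries, while EV and KD 86 overlapped. Between the knockdowns CHM differed by 0.67 ± 0.22 (adjusted p = 0.0501, 0.00837 with the block, 0.00975 with the length trend removed, and 0.0286 to 0.0321 without EV replicate 1 or 2). CHM and CHML share 78.3% of aligned coding bases, and how reads common to paralogues were counted is not given in the sources used here.

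RABGGTA, the alpha subunit of the transferase, stood at 435, 445 and 419 normalised reads in EV, 257, 345 and 291 with KD 86 and 524, 546 and 463 with KD 87. It fell by 0.55 ± 0.18 (log2) with KD 86, 1.46-fold (adjusted p = 0.0372). KD 86 lay wholly below EV and KD 87 wholly above it, although the KD 87 value of 0.24 ± 0.18 did not pass (adjusted p = 0.431). The knockdowns differed by 0.78 ± 0.18 (adjusted p = 0.0102). The fall did not pass with the trend by transcript length removed (adjusted p = 0.0556), in the 2 groups alone (0.0816), or without EV replicate 1, 2 or 3, KD 86 replicate 1 or 3 or KD 87 replicate 1 or 2 (0.0528 to 0.109).

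RABGGTB, the catalytic beta subunit, stood at 2633, 1793 and 3746 normalised reads in EV, 1127, 1104 and 1680 with KD 86 and 2200, 2103 and 3289 with KD 87. It fell by 1.03 ± 0.30 (log2) with KD 86, 2.04-fold (adjusted p = 0.0212), a call lost without EV replicate 1 or 3 or KD 86 replicate 1 or 2 (0.0621 to 0.0799). Every KD 86 library was below every EV library, and EV and KD 87 overlapped (log2 fold change -0.07 ± 0.30, adjusted p = 0.9). The knockdowns differed by 0.95 ± 0.30 (adjusted p = 0.0371). That difference was lost without a variance trend (adjusted p = 0.0516) and without EV replicate 1, KD 86 replicate 1 or 2 or KD 87 replicate 1, 2 or 3 (0.0529 to 0.129). RABGGTB overlaps ACADM, an enzyme of fatty acid oxidation, on the same strand but not at its 3′ end. ACADM fell with KD 86 by 1.11 on the log2 scale (adjusted p = 0.00107), with 0.28 for KD 87 (adjusted p = 0.325), and its part in the counts of RABGGTB was not tested.

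**Figure D2:**
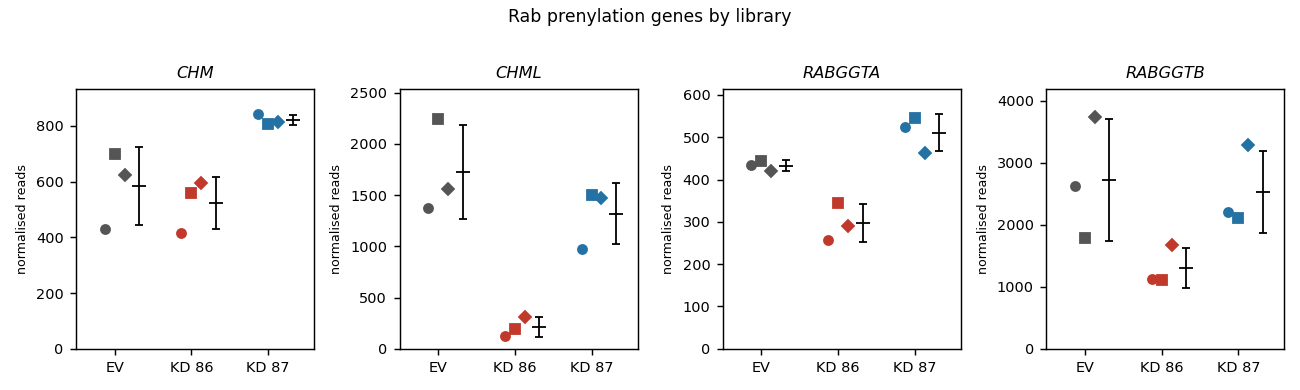
Normalised reads (vertical axes, each from 0) of the 4 prenylation genes in each library of EV, KD 86 and KD 87, with a circle, square and diamond for replicates 1, 2 and 3 and a bar for mean ± SD. CHML ranges from 123 to 315 with KD 86, below all EV libraries (1371 to 2242), and RABGGTA and RABGGTB are also lowest there.

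The 12 Rabs of the endoplasmic reticulum and Golgi included the paralogue pairs RAB2A and RAB2B, RAB6A and RAB6B, and RAB39A and RAB39B. With KD 86, 5 of the 12 rose (RAB2B, RAB6A, RAB6B, RAB18 and RAB39B) and RAB39A fell, beside 18.0% and 17.6% of all genes. With KD 87, 2 rose (RAB2B and RAB6B) and 0 fell (0 at an unadjusted p under 0.05, and 0 by voom), beside 5.92% and 4.43%. Between the knockdowns only RAB39B passed, beside 25.5% of all genes. The values not called, those of RAB1B, RAB33B and RAB43 among them, ranged from -0.17 to 0.91 (log2) with KD 86 and from -0.74 to 1.08 with KD 87.

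RAB6B, the brain-enriched form of the Golgi Rab RAB6, stood at 133, 154 and 162 normalised reads in EV, 459, 399 and 454 with KD 86 and 407, 325 and 319 with KD 87. It rose by 1.54 ± 0.19 (log2) with KD 86 (2.91-fold, adjusted p = 0.000322) and by 1.22 ± 0.19 with KD 87 (2.33-fold, adjusted p = 0.00502). Both knockdown groups lay wholly above EV, and the difference between them was -0.32 ± 0.19 (adjusted p = 0.242). SRPRB, which runs antisense across its 3′ end, had values of 0.05 (adjusted p = 0.888) and -0.40 (adjusted p = 0.328). RAB6A, the ubiquitous paralogue of RAB6B, rose with KD 86 (0.67 ± 0.20, adjusted p = 0.0232), and had 0.25 ± 0.20 with KD 87 (adjusted p = 0.447). That rise was lost in the 2 groups alone (0.0504) and without EV replicate 1 or 3 or KD 86 replicate 1, 2 or 3 (0.0565 to 0.0833).

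RAB2B, a paralogue of the RAB2A that acts between the endoplasmic reticulum and the Golgi, stood at 153, 201 and 179.9 normalised reads in EV, 475, 354 and 371 with KD 86 and 493, 319 and 334 with KD 87. The gene rose with KD 86 by 1.16 ± 0.23 (log2, 2.24-fold, adjusted p = 0.00355) and with KD 87 by 1.08 ± 0.23 (2.11-fold, adjusted p = 0.017). Both groups lay wholly above EV, and the second call was lost without EV replicate 1 or KD 87 replicate 1 (0.0709 to 0.0827). RAB2A, which shares 76.0% of its coding bases, had -0.05 ± 0.23 (adjusted p = 0.889) and -0.10 ± 0.23 (adjusted p = 0.803).

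RAB39B, a neuronal Rab whose loss causes X-linked intellectual disability, stood at 71.5, 40.4 and 31.4 normalised reads in EV, 113, 154 and 129 with KD 86 and 31.7, 21.5 and 32.8 with KD 87. With KD 86 it rose by 1.52 ± 0.34 (log2, 2.86-fold, adjusted p = 0.00656), and the KD 87 value was -0.66 ± 0.34 (adjusted p = 0.24). KD 86 lay wholly above EV, and KD 87 overlapped the lower end of EV. The knockdowns differed by -2.17 ± 0.34 (4.51-fold, adjusted p = 0.00139).

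RAB39A, its paralogue with 73.8% of coding bases in common, was counted in this group beside RAB39B but is known mainly from phagosomes and late endosomes. It went the other way at low levels, with 36.9, 52.3 and 23.8 normalised reads in EV, 4.87, 15.0 and 10.6 with KD 86 and 22.2, 29.3 and 14.3 with KD 87. It fell by 1.84 ± 0.48 (log2) with KD 86, 3.58-fold (adjusted p = 0.013), and had -0.74 ± 0.48 with KD 87 (adjusted p = 0.345). KD 86 lay wholly below EV, and KD 87 overlapped it. The difference of 1.10 ± 0.48 between knockdowns did not pass (adjusted p = 0.116, 0.032 with the replicate block).

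RAB1A, which carries vesicles from the endoplasmic reticulum to the Golgi, stood at 2429, 2243 and 2157 normalised reads in EV, 3024, 2558 and 2961 with KD 86 and 2533, 2268 and 2688 with KD 87. KD 86 lay wholly above EV and KD 87 overlapped EV. Its values were 0.32 ± 0.17 with KD 86 (adjusted p = 0.153, and 0.0274 with the length trend removed) and 0.13 ± 0.17 with KD 87 (adjusted p = 0.642). CEP68, a centrosomal protein gene that runs antisense across its 3′ end, rose with KD 86 by 0.98 (log2, adjusted p = 0.0036), and its part in the counts of RAB1A was not tested.

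RAB18, a Rab of lipid droplets and the endoplasmic reticulum, rose with KD 86 by 0.68 ± 0.20 (log2, adjusted p = 0.0247), a call lost with the length trend removed (0.323) and without KD 86 replicate 1 or 3 (0.0789 to 0.081). With KD 87 its value was 0.64 ± 0.20 (adjusted p = 0.0693, 0.00504 with the replicate block). RAB30, a Golgi Rab, had 0.61 ± 0.22 (adjusted p = 0.0534) and 0.76 ± 0.22 (adjusted p = 0.0562). With the block RAB30 passed in both (adjusted p = 0.0179 and 0.013), as it did without some single libraries (0.0301 to 0.032 without EV replicate 2 or KD 86 replicate 3 for KD 86, and 0.0327 to 0.0456 without EV replicate 2 or KD 86 replicate 1 for KD 87).

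**Figure D3:**
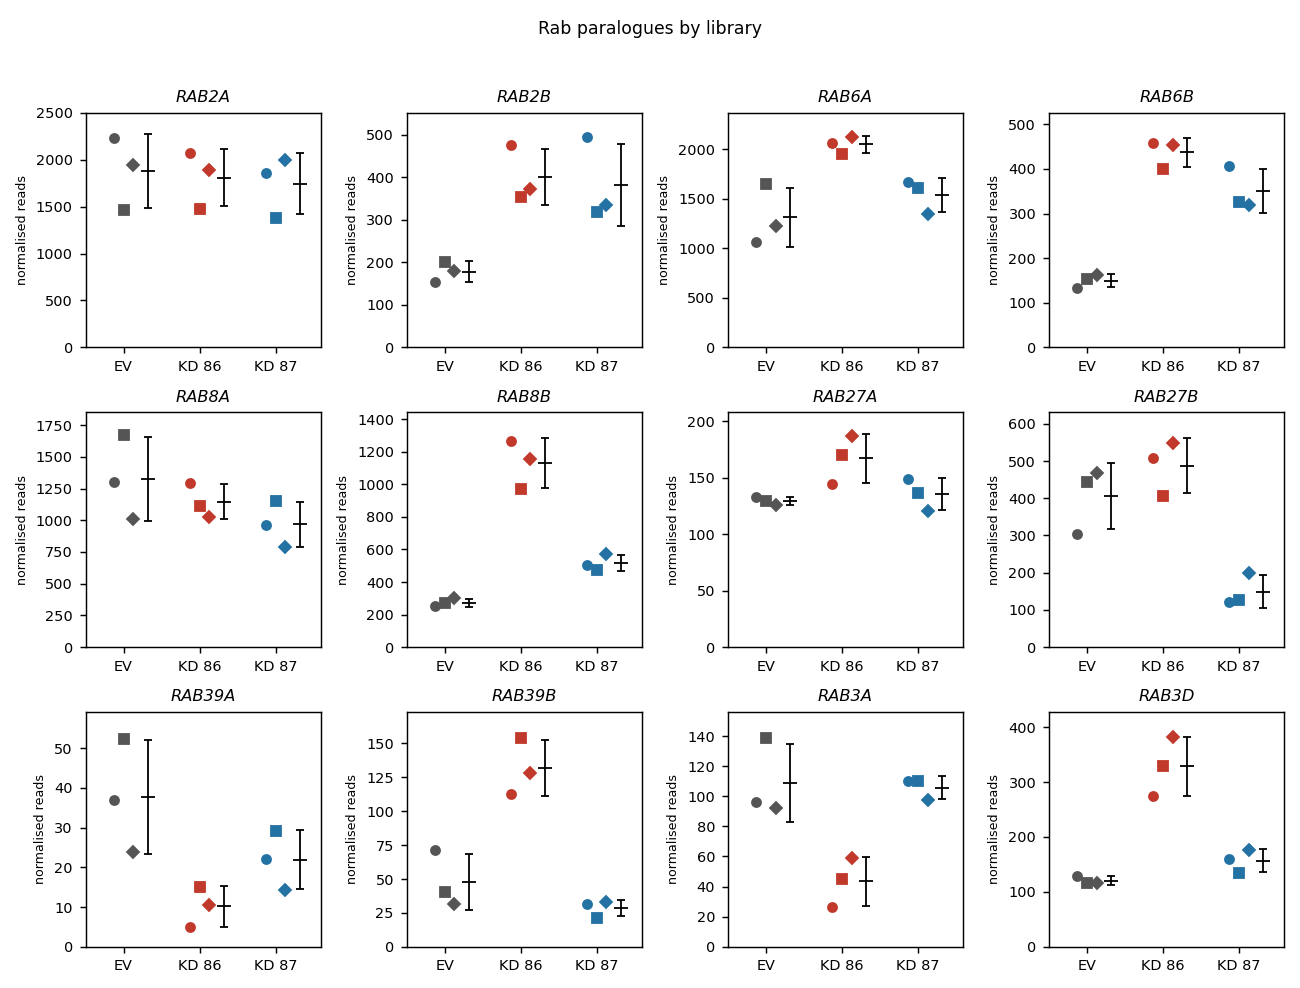
Normalised reads (vertical axes, each from 0) of 6 pairs of Rab paralogues in each library of EV, KD 86 and KD 87, with a circle, square and diamond for replicates 1, 2 and 3 and a bar for mean ± SD. RAB2B, RAB6B and RAB8B lie above EV with both knockdowns, and with KD 86 RAB39A lies below EV and RAB39B above it.

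Of the 10 early endosome Rabs, 4 rose with KD 86 (RAB5A, RAB21, RAB22A and RAB31) and 0 fell (0 at an unadjusted p under 0.05, and 0 by voom). Among all genes 18.0% rose and 17.6% fell. With KD 87, RAB5A and RAB5B rose and 0 fell (2 at an unadjusted p under 0.05, and 0 by voom), beside 5.92% and 4.43%. With the length trend removed RAB21 and RAB22A fell with KD 87 (adjusted p = 0.0478 and 0.0235), and 15.5% of all genes passed. Between the knockdowns RAB21, RAB22A and RAB31, which form a related branch of the family with RAB5, were all lower with KD 87. Among all genes 12.9% were lower. The values not called, those of RAB4A, RAB4B, RAB14 and RAB20 among them, ranged from -0.36 to 0.78 (log2) with KD 86 and from -0.58 to 0.47 with KD 87. RAB14, at -0.36 ± 0.18 with KD 86 (adjusted p = 0.132), passed with the replicate block (0.037) and with the length trend removed (0.0337).

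RAB22A, which sorts cargo from early endosomes into recycling tubules, stood at 1187, 1075 and 892 normalised reads in EV, 2766, 2807 and 2475 with KD 86 and 752, 696 and 646 with KD 87. It rose by 1.36 ± 0.17 (log2) with KD 86, 2.56-fold (adjusted p = 0.000383). The KD 87 libraries all lay below EV, with -0.58 ± 0.17 (adjusted p = 0.0583, 0.00814 with the replicate block, 0.0235 with the length trend removed, and 0.0466 without EV replicate 3). The 3 groups did not overlap one another, and the knockdowns differed by -1.94 ± 0.17 (3.84-fold, adjusted p = 0.000116).

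RAB31, the closest paralogue of RAB22A and a Rab of the trans-Golgi and endosomes, stood at 228, 263 and 211 normalised reads in EV, 398, 628 and 723 with KD 86 and 179.6, 207 and 289 with KD 87. Its rise with KD 86 was 1.28 ± 0.27 (log2, 2.42-fold, adjusted p = 0.00453), and all 3 of those libraries lay above all others. EV and KD 87 overlapped (-0.08 ± 0.27, adjusted p = 0.875), and the knockdowns differed by -1.36 ± 0.27 (adjusted p = 0.00437). RAB21, which acts in integrin traffic, rose with KD 86 by 0.47 ± 0.16 (log2, adjusted p = 0.0462). With KD 87 it had -0.49 ± 0.16 (adjusted p = 0.0804, 0.021 with the block, and 0.0478 with the length trend removed). Its difference between knockdowns was -0.96 ± 0.16 (adjusted p = 0.00214). The rise of RAB21 was lost without EV replicate 1 or 3, KD 86 replicate 1, 2 or 3 or KD 87 replicate 1, 2 or 3 (0.0651 to 0.128), in the 2 groups alone (0.106), without a variance trend (0.0644) and on the values as deposited (0.0511), and its value became -0.03 with the length trend removed (0.941).

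RAB5A, the Rab that drives early endosome fusion, stood at 795, 926 and 860.4 normalised reads in EV, 1214, 1139 and 1293 with KD 86 and 1472, 1203 and 1334 with KD 87. It rose by 0.50 ± 0.17 (log2, 1.41-fold, adjusted p = 0.037) with KD 86 and by 0.63 ± 0.17 (1.55-fold, adjusted p = 0.0359) with KD 87. Both groups lay wholly above EV and overlapped each other. The first call was lost without EV replicate 1 or 3, KD 86 replicate 1, 2 or 3 or KD 87 replicate 2 or 3 (0.0534 to 0.114), and the second without EV replicate 1 or 3, KD 86 replicate 2 or 3 or KD 87 replicate 1, 2 or 3 (0.0592 to 0.155). Without a variance trend the adjusted p was 0.0526 and 0.0534, and in each pair of groups alone 0.0805 and 0.0906.

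RAB5B, a further early endosome isoform, stood at 158, 279 and 149.5 normalised reads in EV, 272, 379 and 323 with KD 86 and 572, 537 and 266 with KD 87. With KD 87 it rose by 1.21 ± 0.33 (log2, 2.31-fold, adjusted p = 0.045), although KD 87 replicate 3 lay below the highest EV library. The KD 86 value was 0.78 ± 0.33 (adjusted p = 0.0932, 0.017 with the replicate block, and 0.0212 to 0.0472 without EV replicate 2 or KD 87 replicate 3). The KD 87 call was lost without EV replicate 1 or 3, KD 86 replicate 1, 2 or 3 or KD 87 replicate 1 or 2 (0.0568 to 0.19), and also with voom (0.0506), without a variance trend (0.0587) and in the 2 groups alone (0.0876). RAB5C, the remaining isoform, had -0.24 ± 0.20 (adjusted p = 0.373) and -0.06 ± 0.20 (adjusted p = 0.877).

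**Figure D4:**
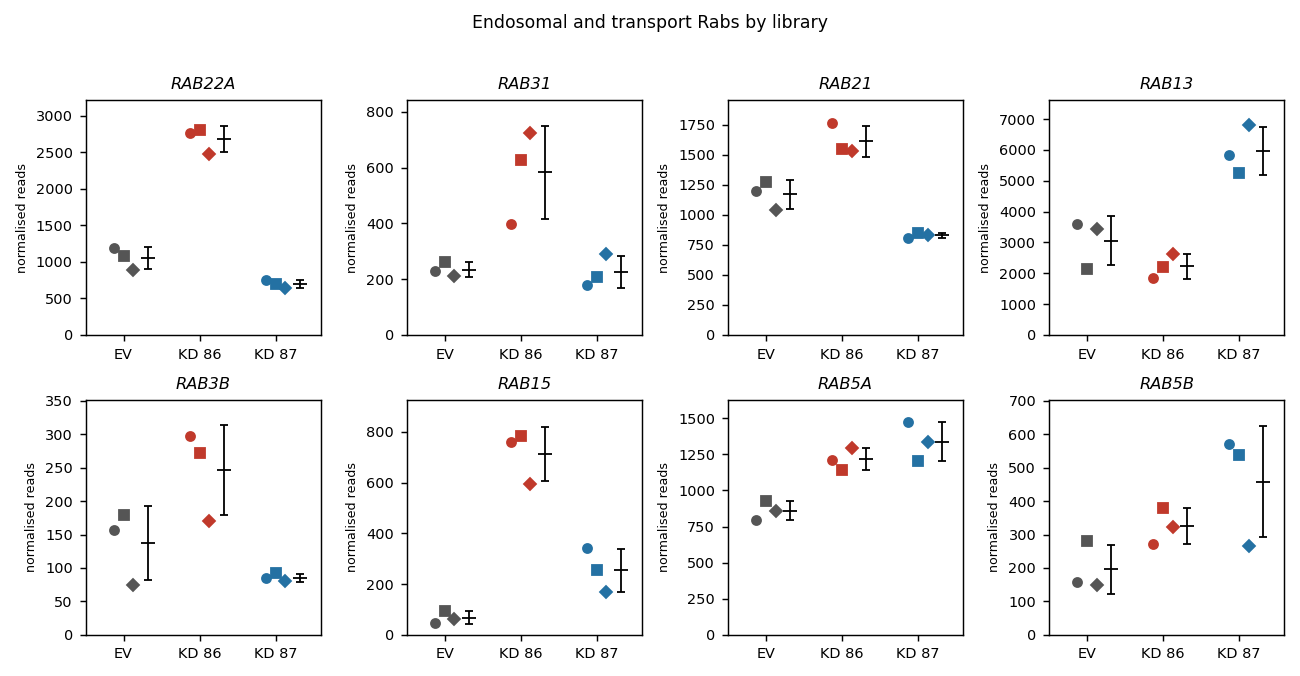
Normalised reads (vertical axes, each from 0) of 8 Rabs of endosomes and transport in each library of EV, KD 86 and KD 87, with a circle, square and diamond for replicates 1, 2 and 3 and a bar for mean ± SD. RAB22A, RAB31 and RAB21 are highest with KD 86, RAB13 is highest with KD 87 (5260 to 6796), and RAB15 is lowest in EV (45.8 to 94.6).

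Among the 10 Rabs of recycling and polarised transport, RAB8B and RAB15 rose and RAB17 fell with KD 86, beside 18.0% and 17.6% of all genes. With KD 87, RAB8B, RAB13 and RAB15 rose and 0 fell (1 at an unadjusted p under 0.05, and 0 by voom), beside 5.92% and 4.43%. Between the knockdowns RAB13 was higher, and RAB8B and RAB15 were lower, with KD 87, beside 12.7% and 12.9% of all genes. The values not called, those of RAB10, RAB11B and RAB35 among them, ranged from -0.44 to 0.54 (log2) with KD 86 and from -0.78 to 0.58 with KD 87. RAB35, at 0.43 ± 0.29 with KD 86 (adjusted p = 0.263), passed with the replicate block (0.0325).

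RAB15, which regulates receptor recycling and is known mainly from neurons, stood at 45.8, 94.6 and 62.9 normalised reads in EV, 762, 785 and 593 with KD 86 and 340.2, 254 and 169 with KD 87. It rose by 3.43 ± 0.32 (log2) with KD 86, 10.8-fold (adjusted p = 8.08e-05), and by 1.90 ± 0.32 with KD 87, 3.73-fold (adjusted p = 0.00647). The 3 groups did not overlap, with KD 86 highest and EV lowest. The knockdowns differed by -1.53 ± 0.32 (2.89-fold, adjusted p = 0.00579).

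RAB8B, which like RAB8A directs vesicles to the plasma membrane and cilium, stood at 250.2, 268 and 299 normalised reads in EV, 1270, 969.7 and 1157 with KD 86 and 507, 473 and 572 with KD 87. It rose by 2.05 ± 0.18 (log2, 4.13-fold, adjusted p = 7.11e-05) with KD 86 and by 0.92 ± 0.18 (1.9-fold, adjusted p = 0.012) with KD 87. The groups did not overlap, the knockdowns differed by -1.12 ± 0.18 (adjusted p = 0.00163), and the KD 87 call was lost without KD 87 replicate 1 (0.0536). RAB8A, with 78.0% of coding bases in common, had -0.19 ± 0.23 (adjusted p = 0.544) and -0.44 ± 0.23 (adjusted p = 0.239).

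RAB13, a Rab of tight junctions whose mRNA is carried to cell protrusions, stood at 3595, 2148 and 3440 normalised reads in EV, 1834, 2217 and 2619 with KD 86 and 5837, 5260 and 6796 with KD 87. With KD 87 it rose by 0.99 ± 0.24 (log2, 1.99-fold, adjusted p = 0.026), with all 3 libraries above every other. The KD 86 value was -0.44 ± 0.24 (adjusted p = 0.173, and 0.0228 without EV replicate 2). The knockdowns differed by 1.43 ± 0.24 (2.7-fold, adjusted p = 0.00193). The rise with KD 87 was lost in the 2 groups alone (0.0571) and without KD 87 replicate 1, 2 or 3 (0.0602 to 0.1).

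RAB17, an epithelial Rab, fell by 1.20 ± 0.26 (log2) with KD 86 (adjusted p = 0.0055), and had -0.78 ± 0.26 with KD 87 (adjusted p = 0.081, 0.0266 with the replicate block, and 0.034 without EV replicate 2). RAB12, which takes part in receptor degradation, had 0.54 ± 0.20 (adjusted p = 0.0578, 0.00723 with the block, and 0.0474 without KD 86 replicate 2) and 0.58 ± 0.20 (adjusted p = 0.0921, 0.011 with the block).

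RAB11A, the marker Rab of recycling endosomes, stood at 2805, 1959 and 2720 normalised reads in EV, 2687, 1955 and 2466 with KD 86 and 2904, 2173 and 2938 with KD 87. Its values were -0.07 ± 0.22 (adjusted p = 0.829) and 0.10 ± 0.22 (adjusted p = 0.792), and the groups overlapped throughout.

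Of the 7 Rabs of late endosomes and lysosomes, 0 rose with KD 86 (0 at an unadjusted p under 0.05, and 0 by voom), and RAB34 fell. With KD 87 0 passed (1 at an unadjusted p under 0.05, and 0 by voom). Among all genes 18.0% rose and 17.6% fell with KD 86, and 10.4% passed with KD 87. RAB34, which positions lysosomes and acts in ciliogenesis, fell by 1.04 ± 0.24 (log2) with KD 86, 2.05-fold (adjusted p = 0.00749), and had -0.08 ± 0.24 with KD 87 (adjusted p = 0.865). It differed between knockdowns by 0.96 ± 0.24 (adjusted p = 0.014), a call lost without KD 86 replicate 2 or KD 87 replicate 3 (0.0562 to 0.0589). RAB7A, the Rab that guides late endosomes to lysosomes, stood at 4662, 4879 and 3324 normalised reads in EV, 4084, 4203 and 4037 with KD 86 and 5765, 5314 and 4479 with KD 87. Its values of -0.04 ± 0.20 (adjusted p = 0.889) and 0.29 ± 0.20 (adjusted p = 0.383) came from overlapping groups. The other 5 (RAB7L1, RAB9A, RAB9B, RAB24 and RAB36) did not pass with either knockdown in the fit without a block, and the values not called ranged from -0.68 to 0.44 (log2) with KD 86 and from -0.28 to 0.80 with KD 87. With the replicate block RAB9A (adjusted p = 0.0355) and RAB36 (0.0186) passed with KD 86 and RAB24 (0.0196) with KD 87. With the length trend removed RAB7L1 (adjusted p = 0.0198) and RAB9A (0.0288) passed with KD 86 and RAB24 (0.0399) with KD 87.

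Of the 5 secretory Rabs, which act in regulated exocytosis, RAB3D rose and RAB3A fell with KD 86, beside 18.0% and 17.6% of all genes. With KD 87 RAB27B fell and 0 rose (1 at an unadjusted p under 0.05, and 0 by voom), beside 4.43% and 5.92%. Between the knockdowns 4 of the 5 passed, beside 25.5% of all genes. RAB3A was higher and RAB3B, RAB3D and RAB27B were lower with KD 87. The 3 RAB3 genes, which share 76.6% to 79.6% of aligned coding bases, were thus not called in 1 direction. The remaining member RAB26 had 0.32 ± 0.56 with KD 86 (adjusted p = 0.679) and 1.26 ± 0.56 with KD 87 (adjusted p = 0.171, 0.00568 with the replicate block).

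RAB27B, the paralogue of RAB27A in secretory cells and platelets that acts in exosome release, stood at 304, 444 and 468 normalised reads in EV, 509, 406 and 548 with KD 86 and 120.4, 127 and 199.6 with KD 87. It fell by 1.45 ± 0.26 (log2) with KD 87, 2.74-fold (adjusted p = 0.00818), and all 3 libraries lay below every other. EV and KD 86 overlapped (0.28 ± 0.26, adjusted p = 0.42), and the knockdowns differed by -1.73 ± 0.26 (3.32-fold, adjusted p = 0.00113).

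RAB3D, a Rab of secretory granules in exocrine cells, stood at 129.6, 117 and 116 normalised reads in EV, 275, 329 and 382 with KD 86 and 161, 134 and 176 with KD 87. The rise with KD 86 was 1.43 ± 0.21 (log2, 2.69-fold, adjusted p = 0.000806). KD 87 also lay wholly above EV, with 0.37 ± 0.21 (adjusted p = 0.285), and the knockdowns differed by -1.06 ± 0.21 (adjusted p = 0.00467).

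RAB3B, found in endocrine and nerve cells, stood at 158, 179 and 74.8 normalised reads in EV, 297, 272 and 171 with KD 86 and 84.5, 92.1 and 79.8 with KD 87. Against EV it had 0.90 ± 0.34 with KD 86 (adjusted p = 0.061, 0.00643 with the replicate block, and 0.0233 to 0.0391 without EV replicate 2 or KD 86 replicate 3) and -0.58 ± 0.34 with KD 87 (adjusted p = 0.296). Each knockdown overlapped EV, but the knockdowns did not overlap each other, and they differed by -1.48 ± 0.34 (2.79-fold, adjusted p = 0.00975). RAB3A, the synaptic vesicle Rab, fell by 1.36 ± 0.32 (log2) with KD 86 (adjusted p = 0.00808), had -0.02 ± 0.32 with KD 87 (adjusted p = 0.977), and differed between them by 1.34 ± 0.32 (adjusted p = 0.0113).

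The 3 melanosome Rabs did not pass with either knockdown or between the knockdowns in limma (1 with KD 86, 0 with KD 87 and 0 between them at an unadjusted p under 0.05, and 0 by voom in each). Among all genes 35.6%, 10.4% and 25.5% passed in these comparisons. RAB27A stood at 133, 129.5 and 126 normalised reads in EV, 144, 171 and 187 with KD 86 and 149, 137 and 121 with KD 87, with values of 0.36 ± 0.20 (adjusted p = 0.191) and 0.06 ± 0.20 (adjusted p = 0.875). All KD 86 libraries lay above EV by a small margin, and KD 87 overlapped EV. RAB32 stood at 425, 190.1 and 431 normalised reads in EV, 379.8, 234 and 345 with KD 86 and 229, 168 and 239.5 with KD 87, with -0.06 ± 0.33 for KD 86 (adjusted p = 0.905). Its KD 87 value was -0.64 ± 0.33 (adjusted p = 0.246, 0.0232 under the block, and 0.0253 without EV replicate 2). Replicate 2 was the lowest library of RAB32 in every group. Between the knockdowns its value of -0.58 ± 0.33 did not pass (adjusted p = 0.235), but it did with the block (0.0249) and with the length trend removed (0.0344).

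RAB38 stood at 263, 163 and 153 normalised reads in EV, 269, 257 and 302 with KD 86 and 254, 194 and 177 with KD 87. Its values were 0.56 ± 0.25 with KD 86 (adjusted p = 0.106, 0.0334 with the replicate block, 0.025 with the length trend removed, and 0.0326 without EV replicate 1) and 0.14 ± 0.25 with KD 87 (adjusted p = 0.759). EV replicate 1, at 263, stood above the other EV libraries and inside the KD 86 range.

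Among the 4 remaining Rabs (RAB23, RAB28, RAB40B and RAB40C), 0 passed with KD 86 (0 at an unadjusted p under 0.05, and 0 by voom), and RAB28 fell with KD 87. Over all genes 35.6% passed with KD 86, and 4.43% fell with KD 87. RAB28, a farnesylated Rab of cilia and photoreceptors, stood at 496, 241 and 420.4 normalised reads in EV, 317, 232 and 316 with KD 86 and 135, 109 and 226 with KD 87. It fell by 1.30 ± 0.33 (log2), 2.46-fold (adjusted p = 0.033), with all KD 87 libraries below EV. The call was lost in the 2 groups alone (0.0678) and without EV replicate 1 or 3 or KD 87 replicate 1 or 2 (0.0858 to 0.132). Its KD 86 value was -0.37 ± 0.33 (adjusted p = 0.406), and the difference between knockdowns was -0.93 ± 0.33 (adjusted p = 0.0632, 0.00415 with the replicate block, and 0.0268 to 0.0272 without EV replicate 2 or KD 87 replicate 3). RAB40B, whose family serves as an adaptor of ubiquitin ligases, had 0.41 ± 0.32 (adjusted p = 0.338) and -0.92 ± 0.32 (adjusted p = 0.0943, 0.0194 with the block). It was lower with KD 87 than with KD 86, by -1.33 ± 0.32 (adjusted p = 0.0125).

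The comparison of KD 87 with KD 86 asked whether the 2 knockdowns differed in these genes. Of the 55 members, 6 were higher with KD 87 (CHML, RAB3A, RAB13, RAB34, RABGGTA and RABGGTB) and 10 lower (RAB3B, RAB3D, RAB8B, RAB15, RAB21, RAB22A, RAB27B, RAB31, RAB39B and RAB40B). Of all genes 12.7% were higher and 12.9% lower, 25.5% together, beside 29.1% of members. With the replicate block 25 members passed, beside 44.1% of all genes. RAB15 and RAB8B, which rose with both knockdowns, rose less with KD 87 by this test. For RAB2B, RAB5A and RAB6B the differences did not pass, and they were -0.08 ± 0.23 (adjusted p = 0.83), 0.13 ± 0.17 (adjusted p = 0.6) and -0.32 ± 0.19 (adjusted p = 0.242).

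Groups of libraries that did not overlap gave a further count. With KD 86, 16 members lay wholly above EV and 8 wholly below, beside 22.5% and 22.8% of all genes. With KD 87 these were 14 and 7, beside 15.2% and 14.0%. Between the knockdowns 12 lay wholly higher and 13 wholly lower with KD 87, beside 22.9% and 22.4%.

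Genes that handle Rabs were counted from lists of the pathway. Of 12 genes for GDIs and membrane loading, 1 rose and 1 fell with KD 86 (16.7%, beside 35.6% of all genes), and 0 passed with KD 87 (2 higher and 2 lower at an unadjusted p under 0.05, and 0 by voom). YIPF2, a Golgi membrane protein that binds Rabs, fell by 1.29 ± 0.18 (log2) with KD 86 (adjusted p = 0.00061), and had -0.27 with KD 87 (adjusted p = 0.365). YIPF1, of the same family, rose by 0.65 ± 0.22 with KD 86 (adjusted p = 0.0439). That rise was lost on the values as deposited (0.0509), without a variance trend (0.0537), in the 2 groups alone (0.0628) and without EV replicate 2 or 3, KD 86 replicate 1, 2 or 3 or KD 87 replicate 2 or 3 (0.054 to 0.137). GDI2, which extracts prenylated Rabs from membranes, had -0.68 ± 0.20 with KD 87 (adjusted p = 0.0532, 0.00919 with the replicate block, and 0.0453 to 0.0459 without EV replicate 3 or KD 86 replicate 1).

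Of 50 exchange factor genes tested, 8 rose and 5 fell with KD 86 (26.0%, beside 35.6% of all genes), and 4 rose and 1 fell with KD 87 (5 of 50, beside 10.4% of all genes). SH3BP5, an exchange factor of RAB11, rose by 1.84 ± 0.21 (log2) with KD 86 (adjusted p = 0.000192) and by 0.72 ± 0.21 with KD 87 (adjusted p = 0.0499). The second was lost with voom (0.0576), with a pseudocount of 5 (0.0502), without a variance trend (0.0659), in the 2 groups alone (0.0953) and without EV replicate 1 or 3, KD 86 replicate 1, 2 or 3 or KD 87 replicate 1, 2 or 3 (0.0548 to 0.181). DENND1B, of the DENN family that acts on RAB35, rose by 1.63 ± 0.25 (adjusted p = 0.00102) and 1.45 ± 0.25 (adjusted p = 0.0073). TRAPPC13, a subunit of the TRAPP complex, fell by 1.74 ± 0.32 with KD 86 (adjusted p = 0.00253).

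Of 37 GAP genes tested, 8 rose and 4 fell with KD 86 (32.4%, beside 35.6% of all genes), and 1 rose and 1 fell with KD 87 (5.41%, beside 10.4%). TBC1D5, which acts on RAB7, fell by 2.26 ± 0.30 (log2) with KD 86, 4.8-fold (adjusted p = 0.000453), and had -0.46 with KD 87 (adjusted p = 0.348). TBC1D20, the GAP of RAB1, rose by 0.98 ± 0.21 with KD 86 (adjusted p = 0.00574).

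Of 52 effector genes tested, 11 rose and 6 fell with KD 86 (32.7%, beside 35.6% of all genes), and 2 rose and 2 fell with KD 87 (7.69%, beside 10.4%). RAB11FIP4, which binds RAB11, rose by 2.97 ± 0.41 (log2) with KD 86, 7.84-fold (adjusted p = 0.000591), and had 1.25 ± 0.41 with KD 87 (adjusted p = 0.0804, 0.00862 with the replicate block). UNC13D, the RAB27 effector of granule release, fell by 1.92 ± 0.30 with KD 86 (adjusted p = 0.00111), and had 0.09 with KD 87 (adjusted p = 0.883). VPS41, a subunit of the tether that acts with RAB7 at lysosomes, fell by 1.42 ± 0.23 with KD 86 (adjusted p = 0.00121), and had 0.47 with KD 87 (adjusted p = 0.211).

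Of 17 genes for isoprenoid supply and the other prenyltransferases, 4 rose and 5 fell with KD 86 (52.9%, beside 35.6% of all genes). With KD 87 (17.6%, beside 10.4%), 3 fell and 0 rose (2 higher at an unadjusted p under 0.05, and 0 by voom). FDPS, which makes farnesyl diphosphate in the pathway that supplies the lipid, fell by 1.05 ± 0.19 (log2) with KD 86 (adjusted p = 0.00223) and by 0.78 ± 0.19 with KD 87 (adjusted p = 0.0279), the latter lost in the 2 groups alone (0.076) and without EV replicate 1 or 3, KD 86 replicate 2 or KD 87 replicate 1 or 2 (0.0507 to 0.133). PTAR1, an alpha subunit related to RABGGTA, rose by 1.63 ± 0.26 with KD 86 (adjusted p = 0.00109).

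Set by the coding ends shown above, the 9 Rabs with 1 cysteine codon among the last 5 had 2 rises and 0 falls with KD 86 (0 falls at an unadjusted p under 0.05, and 0 by voom) and a median log2 fold change of 0.38. The 42 with 2 cysteine codons had 10 rises and 4 falls and a median of 0.32. With KD 87 the counts were 2 rises and 1 fall (median 0.24) and 5 rises and 1 fall (median 0.07). Among all genes 18.0% rose and 17.6% fell with KD 86, with a median log2 fold change of -0.04. With KD 87 5.92% of all genes rose and 4.43% fell. The difference between these classes of Rabs was not tested.

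Other annotated genes lie over the 3′ ends of some members, where these reads fall, and whether counting used strand is not given in the sources used here. RAB1A, RAB3A, RAB3D, RAB5A, RAB6B, RAB15 and RAB23 are covered there by a gene on the other strand, and CHML, RAB4B, RAB5C, RAB8A, RAB13 and RAB40C by a gene on the same strand. Their values are uncertain to that extent.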

How the data were processed

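RNA from 3 EV, 3 SPANX KD 86 and 3 SPANX KD 87 libraries of A375 cells was sequenced from 3′ ends. The authors deposited a normalised read count per gene, used here as a score because the values are scaled and rounded to whole numbers. In each library 2603 rows repeated a gene ID, not always with the same value, and the highest value was kept. STAR, featureCounts, Subread and edgeR are named, with hg19, per the submitters' processing notes, and their versions and the scaling are not given in the sources used here. A 0 across a group appears to mean filtered: 400 IDs have values in EV or KD 86 but none with KD 87, and 453 the reverse. A test on counts would have suited raw counts, so edgeR was not run.

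The constant that scaled each library was recovered from the spacing of its values, and the reads were rescaled with the TMM formula (trimming 30% of log ratios and 5% of abundances), since the filter points to KD 87 files that were normalised apart from the rest. The 13825 genes above 0 in at least 1 KD 87 library and in at least 1 library of the other groups were tested. A gene at 0 throughout EV could therefore be tested. Tests used limma 3.58.1 in R 4.3.3 on log2(value + 1) with a variance trend and 1 coefficient for each of 3 groups. The log2(value + 1) scale understates folds of low genes. The code was tested on simulated data. P-values were adjusted by Benjamini-Hochberg, with a threshold of 0.05. Sequences were read from GENCODE v29 transcripts and aligned with Biopython 1.88. Alternatives were leaving out each library, a replicate block, removal of the trend by transcript length, other scalings, filters and pseudocounts, voom and fits of 2 groups.

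Replicate numbers in the labels paired the libraries: over 13322 genes with a mean of at least 20, deviations from group means correlated at 0.21 to 0.75 in all 9 same-numbered pairs and at -0.66 to 0.15 in the others. The source of this pairing is not given in the labels.

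The members and the lists were chosen with earlier results of these data known. Values in every library are given for the 4 prenylation genes, RAB1A, RAB5A, RAB7A, RAB11A, RAB27A, RAB32 and RAB38, for members called the same way with both knockdowns, and for the 8 called members with the largest change in each comparison at a mean of at least 20 normalised reads. From each list, up to 4 genes with the smallest adjusted p against EV could be named. Some genes that this rule or the lists select are not reported here.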

Additional observations from a re-analysis of the deposited data

Results flagged for a closer look

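For 12 named members the effect against EV differed between the 2 knockdowns by limma's direct comparison of KD 87 with KD 86, given here as log2 differences (KD 87 minus KD 86). Higher with KD 87 were CHML (2.71), RAB13 (1.43), RABGGTB (0.95) and RABGGTA (0.78). Lower with KD 87 were RAB39B (-2.17), RAB22A (-1.94), RAB27B (-1.73), RAB15 (-1.53), RAB3B (-1.48), RAB31 (-1.36), RAB8B (-1.12) and RAB3D (-1.06). RAB15 and RAB8B were above EV with both knockdowns, so for them the difference is one of size.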

How the results depend on the processing

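With the replicate block, 0 of the members' calls were lost, and 9, 11 and 9 were gained with KD 86, with KD 87 and between them. The block gave 20 member calls with KD 87 and 25 between the knockdowns, and 7645, 4283 and 6094 calls over all genes, where the fit without it gave 4925, 1431 and 3532. Removing the length trend gave 14 member calls with KD 87, and together with the block 32, 23 and 30 member calls and 7615, 4764 and 6589 over all genes. Fitting only EV and KD 87 gave 5 member calls and 856 over all genes. The cause of these moves was not tested, and the fit of 2 groups also used fewer libraries. Leaving out 1 library gave 13 to 22, 3 to 12 and 14 to 18 member calls, and 3059 to 6014, 368 to 2553 and 2206 to 4191 over all genes. The log2 ratio of the summed level of the 2 tested SPANX genes ran from -3.46 to -2.49 with KD 86 and from -4.13 to -3.42 with KD 87 in the same way.

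Among the values of named members that did not pass, 30 recomputations changed sign. With the length trend removed, with or without the block, KD 86 gave 0.23 for RAB11A, -0.16 for RAB27B, 0.23 for RAB32 and 0.55 for RAB7A, and KD 87 gave 0.09 for RABGGTB. With the block the value of RAB7A then passed (adjusted p = 0.0311). Leaving out 1 library moved KD 86 values across 0, over -0.351 to 0.012 for CHM, -0.234 to 0.063 for RAB11A, -0.449 to 0.149 for RAB32 and -0.215 to 0.061 for RAB7A. It moved KD 87 values over -0.061 to 0.246 for RAB11A, -0.009 to 0.142 for RAB27A, -0.273 to 0.068 for RAB31, -0.013 to 0.382 for RAB38 and -0.342 to 0.189 for RABGGTB, and the difference between the knockdowns over -0.283 to 0.046 for RAB2B. Of the called values for members named by the rule, recomputed under each setting, 620 still passed, 60 did not and 0 changed sign. RAB21, outside that set, was called with KD 86, and its value became -0.03 with the length trend removed (adjusted p = 0.941). RAB39A, at 4.87 to 52.3 normalised reads a library, is the member of the smallest depth described with its values.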

Other observations

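Among the tested genes whose levels followed those of CHML most closely over the 9 libraries were KRT8P12 (Pearson r = 0.9969), SERINC2 (0.9921), ZNF814 (0.9912) and CEP41 (0.9889). SERINC2 encodes a membrane protein of the serine incorporator family. Each was lowest in the KD 86 libraries, where SERINC2 stood at 461 to 779 normalised reads beside 2048 to 2788 in EV. The 9 points share libraries and a group structure in which KD 86 stands apart, so these values describe likeness of pattern only.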
